A study of Mus musculus with 4 samples.

Results

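Kupffer cells are the resident macrophages of the liver sinusoids, where they take up dying cells, ageing red cells and bacteria from portal blood. Timd4 encodes TIM-4, a receptor for phosphatidylserine on dying cells. In mouse liver its presence is widely used to mark Kupffer cells of embryonic origin, while macrophages that arise from blood monocytes and settle in the Kupffer cell niche first gain markers such as Clec4f, a Kupffer cell lectin, and gain Timd4 late or not at all. The cells described here carried the Kupffer cell genes but no Timd4 transcript. They were chosen by their own counts: at least 2000 UMIs (unique transcript counts), at least 300 genes and under 15% mitochondrial UMIs, with at least 2 UMIs of Clec4f, 1 of Vsig4 (a complement receptor of Kupffer cells) and 1 of Csf1r (the macrophage growth factor receptor), 0 of Timd4, 0 of the lymphocyte genes Cd3e and Cd79a, and at most 1 of the endothelial gene Ptprb. These genes chose the cells, so their levels are given as a description. By this rule 400 Timd4 negative Kupffer cells were found among 27934 kept cells: 165 of 9568 in the S library, 157 of 9500 in HFD_sed and 78 of 8866 in HFD_EXE.

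The study compared livers of C57BL/6J mice, 30 weeks old, with or without a high-fat diet (HFD) and with or without exercise, and sequenced their non-parenchymal cells (the cells of the liver other than hepatocytes) by 10x Genomics 3′ single-cell RNA sequencing. The libraries used were S replicate 1, whose label names no HFD, HFD_sed replicate 2 and HFD_EXE replicate 5. In the labels' HFD names, EXE was taken to mean exercise and sed its absence. The E library was not analysed here. Each group had 1 library, and nothing in the labels says how many animals a library holds. No difference between libraries can therefore be told apart from a difference between animals or preparations. The deposited counts held 84666844, 63456399 and 60901242 UMIs in S, HFD_sed and HFD_EXE, over 11660, 11752 and 11280 barcodes, where the protocol states 5000 to 6000 captured cells. Pairs of libraries shared between 30 and 43 barcodes.

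The same rule with at least 1 Timd4 UMI gave 1868 Timd4 positive Kupffer cells (1262, 249 and 357), the nearest comparison; both classes together are called the Kupffer gate. Clec4f negative macrophages (at least 1 UMI of Csf1r and of Adgre1, the gene of the macrophage antigen F4/80, with no Clec4f or Vsig4) numbered 59, 651 and 90. B cells served to show free RNA of genes that they should lack. They express MHC class II genes themselves and show nothing about free RNA of those. Levels are CPM, a gene's UMIs summed over a class in a library per 1000000 UMIs of that sum. Within 1 library, or between 2, a gene with at least 20 UMIs over the sums compared is called higher or lower when the ratio is at least 1.5-fold and its exact conditional binomial 95% interval excludes equality. That interval covers counting error only, so such a call compares libraries or pools of cells, not conditions.

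The label held for most cells in HFD_sed and HFD_EXE but for fewer in S. Per cell, the median sum of 12 Kupffer cell identity genes (among them Cd5l, an apoptosis inhibitor secreted by macrophages, Slc40a1, the iron exporter ferroportin, and C6, a complement component) was 111 UMIs per 10000 in S, 140 in HFD_sed and 151 in HFD_EXE. The Timd4 positive cells stood at 192, 186 and 167. In S, 43 of 165 members had more UMIs of 14 genes typical of monocyte-derived cells than of the identity genes, against 2 of 157 in HFD_sed and 2 of 78 in HFD_EXE. These S cells mostly carried little Clec4f: the 61 S members with under 1000 Clec4f CPM in the cell had an identity sum of 1449 CPM, a monocyte-derived sum of 3851 CPM, a neutrophil sum of 5778 CPM and a median of 9928 UMIs. The other 104 S members had sums of 15702, 830 and 653 CPM and a median of 3245.5 UMIs. Clec4f UMIs were also found in 48.7% of S B cells (10.7% in HFD_sed and 16.8% in HFD_EXE), at a median of 3571 UMIs per cell against 4419 in the members. As a pool, the 61 S cells went against the label. Results are given for all members and for the 304 with at least 1000 Clec4f CPM (104, 127 and 73), called the Clec4f-high members, a limit chosen after the data were seen.

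**Figure D1:**
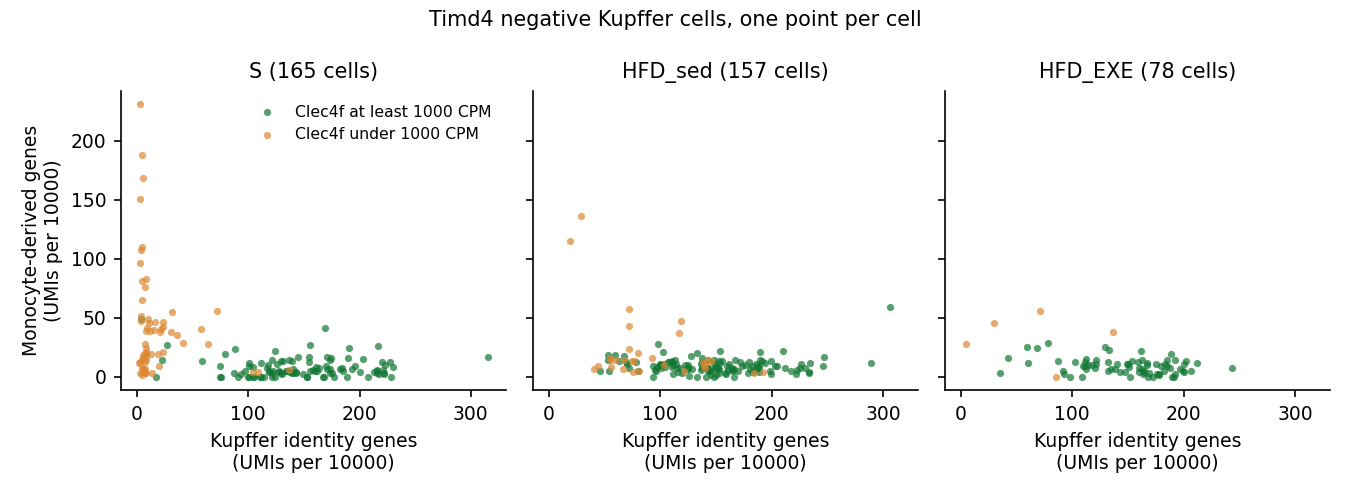
Each point is a Timd4 negative Kupffer cell, by its UMIs per 10000 of the 12 Kupffer identity genes (horizontal) and of the 14 monocyte-derived genes (vertical), with 1 panel per library and colour for cells at or above and under 1000 Clec4f CPM. In S a column of cells under 1000 CPM stands near 0 on the identity axis, while in HFD_sed and HFD_EXE 2 cells in each library have more monocyte-derived than identity UMIs.

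At the edge of the rule the Kupffer identity sum was lower in each library. The 65 S cells with 1 Clec4f UMI, just outside the rule, had an identity sum of 983 CPM, and the 31 with 2 UMIs, just inside, had 1660 CPM. The 61 with 10 or more UMIs had 16954 CPM. In HFD_sed the same sums were 3517, 7457 and 13341 CPM over 23, 9 and 104 cells, and in HFD_EXE 1595, 3221 and 15025 CPM over 10, 2 and 44 cells. Just outside the limit on Timd4, the cells with exactly 1 Timd4 UMI (141 in S, 56 in HFD_sed, 96 in HFD_EXE) had identity sums of 13915, 15989 and 14652 CPM.

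Timd4 negative cells made up a larger share of the Kupffer gate in HFD_sed than in the other libraries, and this was clearest among deeply read cells. Over all depths the share was 11.6% in S (165 of 1427, exact 95% interval 9.95 to 13.3), 38.7% in HFD_sed (157 of 406, 33.9 to 43.6) and 17.9% in HFD_EXE (78 of 435, 14.4 to 21.9). A shallow cell can lack a Timd4 UMI by sampling alone, and the members were shallower than the Timd4 positive cells: their median UMIs were 4419 against 10008.5 in S, 6416 against 6698 in HFD_sed and 2940 against 5304 in HFD_EXE. Among cells of at least 8000 UMIs the share was 5.05% in S (43 of 851, 3.68 to 6.75), 44.4% in HFD_sed (71 of 160, 36.5 to 52.4) and 3.19% in HFD_EXE (3 of 94, 0.663 to 9.04). With every cell thinned to 4000 UMIs, and shallower cells left out (204 in S, 95 in HFD_sed and 176 in HFD_EXE), it was 17.2%, 46.3% and 15.4%. In these deep cells and after this thinning the HFD_sed interval overlapped neither that of S nor that of HFD_EXE. In the range of fewest UMIs, from 2000 to under 4000, it overlapped both, with 44.2% (34.0 to 54.8) in HFD_sed, 35.3% (28.7 to 42.3) in S and 32.4% (25.5 to 39.8) in HFD_EXE. Timd4 itself stood at 582, 296 and 517 CPM over all gate cells, and 5.6%, 0.6% and 2.4% of B cells held a Timd4 UMI. Among Clec4f-high cells alone the shares were 7.70%, 34.5% and 17.0%.

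**Figure D2:**
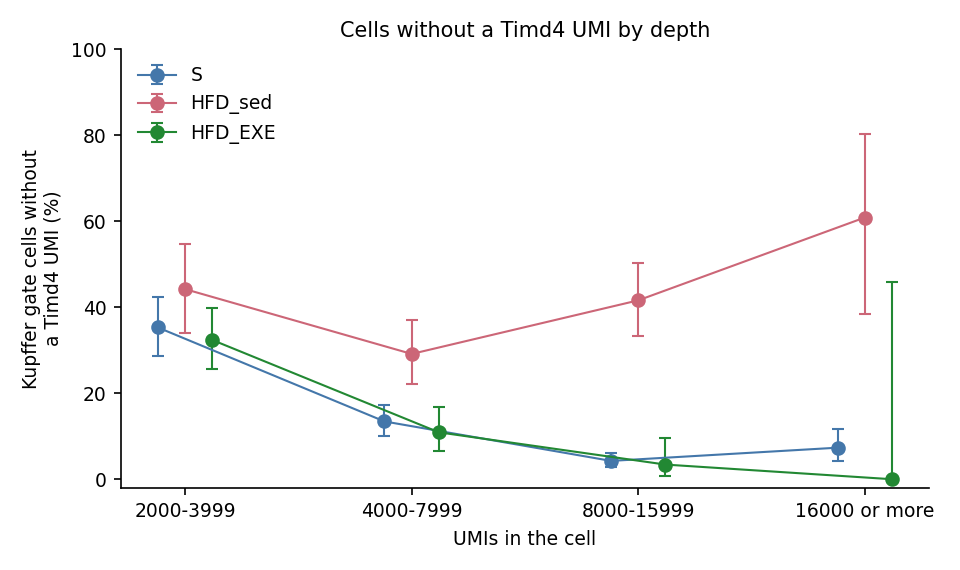
Percentage of Kupffer gate cells without a Timd4 UMI (vertical) by the UMIs in the cell (horizontal) for the 3 libraries, with exact 95% binomial intervals. In S and HFD_EXE it was 35.3% and 32.4% in the range of fewest UMIs and 4.27% and 3.41% in the range that starts at 8000 UMIs, while in HFD_sed it was 44.2% and 41.6% in these ranges, and 60.9% (14 of 23 cells) in the deepest.

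The members were first set against the Timd4 positive cells over all 3 libraries, with the library as a block. Outside the genes of the rule only Cx3cr1, the fractalkine receptor of monocytes and many tissue macrophages, passed the test. Its level in the Timd4 negative cells was 181 CPM in S, 169 in HFD_sed and 111 in HFD_EXE. In the Timd4 positive cells it was 5.67, 20.8 and 7.73 CPM. The rise was 4.07 on the log2 scale (SE 0.362, adjusted p = 0.0107 by edgeR's quasi-likelihood test with Benjamini-Hochberg adjustment, n = 3 library pairs). Unadjusted, p was 2.25e-06 by the same test. The adjustment ran over the rule genes too, among them Timd4, whose difference was fixed by the rule. A gene ranked ahead of Cx3cr1 in this way lowers its adjusted p. With the rule genes left out of the count, Cx3cr1 was 1 of 9521 genes tested (0.0105%), and 0 genes (0%) fell. At an unadjusted p under 0.05 there were 972 genes, and DESeq2 called 22 higher and 13 lower. Among the Clec4f-high members Cx3cr1 rose by 2.20 (adjusted p = 0.00113, same test), but its level was then 7.37 CPM in S, from 3 UMIs, 88.9 in HFD_sed and 32.7 in HFD_EXE. In HFD_EXE 18 of the 31 Cx3cr1 UMIs came from 1 cell. Without the HFD_EXE library the adjusted p was 0.1315 and without the block it was 0.1394.

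Genes commonly assigned to long-resident Kupffer cells had lower fitted levels but did not pass this test, although DESeq2 called some of them. The fitted difference was -1.61 for Cd163, the haemoglobin scavenger receptor (adjusted p = 0.202), -1.28 for C6 (adjusted p = 0.177), -1.21 for Folr2, a folate receptor (adjusted p = 0.202), and -0.94 for Marco, a scavenger receptor for bacteria (adjusted p = 0.559), all by edgeR's quasi-likelihood test. With DESeq2 on the same classes Cd163 (-1.60, adjusted p = 0.000679), C6 (-1.28, adjusted p = 0.00134), Folr2 (-1.20, adjusted p = 0.00448) and Fcna (-1.31, adjusted p = 0.00258) were lower, and Marco was not called. By edgeR Cd207, the C-type lectin langerin, stood at 0.89 (adjusted p = 0.637). The libraries differed in these genes, as the next values show. The Clec4f-high members gave 12 higher and 9 lower genes by the same test. The lower ones were Xlr, the chemokine genes Cxcl9 and Cxcl13, the apolipoprotein gene Apoc1, Pcolce2, Ifitm6, Cd163, Csf2rb and Fcna, a ficolin of Kupffer cells. Cd163 fell by 0.95, Apoc1 fell by 1.23 and Cxcl13 fell by 1.45 on the log2 scale there. The 12 higher genes were Cx3cr1, the collagenase gene Mmp13, Mmp19, Tspan32, the mitotic gene Ube2c, the interferon-induced gene Ifi44, 4 globin genes and the hepatocyte genes Alb and Serpina1d. The sums of erythroid and hepatocyte genes in each class are given with the libraries below.

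In HFD_sed the Timd4 negative cells differed from their Timd4 positive neighbours in 2 gene groups at once: MHC class II genes were higher, and 4 of the 7 measured genes of the resident macrophage list were lower. All 7 measured MHC class II genes were called higher (median log2 ratio 1.15, against -0.08 over all genes, of which 3.51% were called higher and 5.12% lower). H2-Eb1 stood at 4131 against 1402 CPM, a log2 ratio of 1.56 (1.49 to 1.63), and Cd74, the invariant chain, at 11484 against 5134 CPM, a ratio of 1.16. H2-Ab1 was at 4510 against 1807 CPM and H2-Aa at 5364 against 2417 CPM. Ciita, the master regulator of the class, was at 72.9 against 42.1 CPM. The Clec4f-high members gave 7 of 7 again with a median of 1.16, over backgrounds of 3.01% higher and 4.35% lower. With Timd4 positive cells drawn to the depth of the members it was 6 of 7 with a median of 0.92, Ciita being the exception.

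Of the 7 measured resident macrophage genes, 4 were called lower and 1 higher in the HFD_sed members. Marco stood at 296 against 1772 CPM, a log2 ratio of -2.58 (-2.74 to -2.43). Cd163 was at 127 against 665 CPM (-2.39), Folr2 at 250 against 590 CPM (-1.24), and Colec12, a scavenger collectin, at 17.5 against 68.9 CPM (-1.98). The separate list of 13 genes for the uptake of dying cells had 1 gene higher and none lower (median -0.11). That gene was Gas6, the bridging ligand of the receptors Axl and Mertk, which both lists hold, at 27.4 against 11.5 CPM. Of the 12 identity genes 4 were lower and none higher: C6 (292 against 956 CPM), Fcna (400 against 1089 CPM), Cdh5, the cadherin that Kupffer cells share with endothelium (269 against 529 CPM), and the potassium channel gene Kcna2 (150 against 248 CPM). Cd5l and Slc40a1 were not called. The other genes named by size on the lower side were Cxcl13, the B cell chemokine (72.2 against 809 CPM, -3.49), Apoc1 (561 against 2748 CPM, -2.29), Xlr, Pcolce2, Ms4a8a and the complement gene C2.

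Outside the MHC class II genes, Cd207 was among the genes named on the higher side in HFD_sed. It stood at 1010 CPM in the Timd4 negative and 167 CPM in the Timd4 positive cells, a log2 ratio of 2.60 (2.42 to 2.78). A Cd207 UMI was found in 71.3% of the members, 29.3% of the Timd4 positive cells and 1.9% of B cells, with median depths of 6416, 6698 and 2964.5 UMIs. After thinning to 2000 UMIs it was found in 56.7% of the members and 14.1% of the positive cells. In S the same gene stood at 135 against 213 CPM, and in HFD_EXE at 271 against 171 CPM (0.67, 0.29 to 1.03). Cx3cr1 (169 against 20.8 CPM) was found in 22.9% of HFD_sed members and 6.02% of positive cells, with 1.8% of B cells. Mmp13, a collagenase, was at 169 against 27.9 CPM with 35.1% of its UMIs in 1 cell. Gdf3, a TGF-beta family ligand, stood at 57.0 against 3.28 CPM, and the monocyte chemokine gene Ccl7 at 120 against 8.20 CPM with 61% of its UMIs in 1 cell. Ly6a was at 339 against 65.1 CPM, but 35.3% of B cells held a UMI of it. Apoe, the main apolipoprotein of macrophages, was at 25510 against 12830 CPM (0.99).

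**Figure D3:**
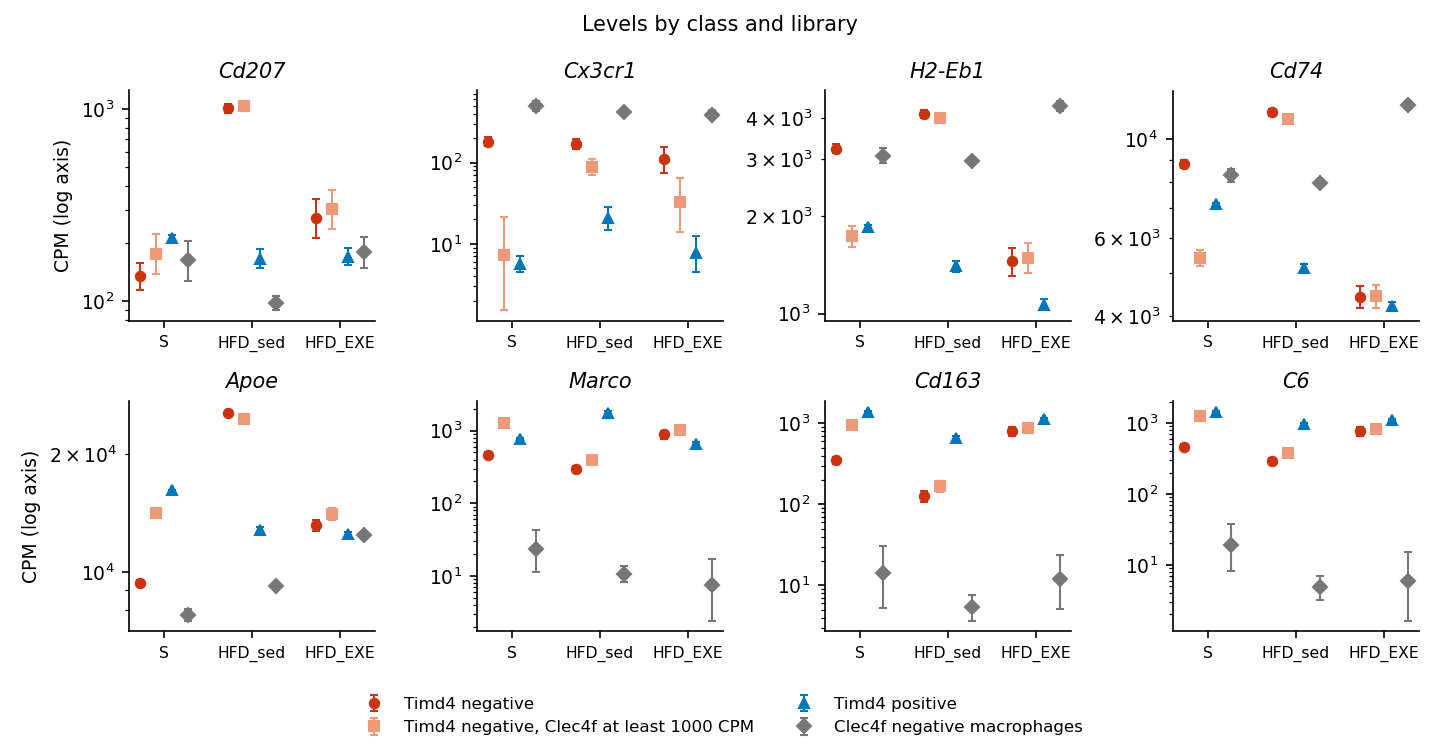
Levels in CPM (log axis, a separate range in each panel) of 8 genes in the Timd4 negative Kupffer cells, their Clec4f-high members, the Timd4 positive Kupffer cells and the Clec4f negative macrophages of each library, with exact 95% counting intervals. In HFD_sed the Timd4 negative cells stand above the positive ones for Cd207, Cx3cr1, H2-Eb1, Cd74 and Apoe and below them for Marco, Cd163 and C6, and in HFD_EXE over all depths the classes are closer for each of these genes but Cx3cr1.

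The HFD_sed differences were also seen in deep cells alone. Among cells of at least 8000 UMIs, 71 members (median 13199 UMIs) and 89 Timd4 positive cells (10681), Marco stood at 127 against 1791 CPM, Cd163 at 48.4 against 584 CPM and C6 at 147 against 843 CPM. In the same deep cells Cd207 was at 1174 against 201 CPM, H2-Eb1 at 4769 against 1656 CPM and Apoe at 29473 against 14446 CPM. The direction of each gene was that of all cells. Of the marker sums of other cells in HFD_sed, the sinusoidal endothelial sum was 413 against 528 CPM, the hepatocyte sum 362 against 379 CPM, and the neutrophil sum 113 against 809 CPM with Ly6g at 0 in the members. The stellate cell sum was higher in the members, at 28.9 against 16.9 CPM, from 38 and 31 UMIs with Col1a1 at 0, and the erythroid sum was 79.8 against 74.9 CPM. Their part in the result was not tested. The monocyte-derived list had 6 of 14 genes higher over all members (median 0.35) but 2 of 13 higher and 4 lower among the Clec4f-high ones (median -0.27). S100a4 was at 69.9 against 27.9 CPM over all members and 20.4 against 24.7 CPM in the Clec4f-high ones, while Ms4a7, at 213 against 137 CPM, was called higher in both. Of the other lists, 4 of 14 interferon response genes and 4 of 6 measured cell cycle genes were higher, where 3.51% of all genes were. The cell cycle UMIs were unevenly spread: 3 of the 157 members held 138 of 364, and the median sum per cell was 137 CPM against 123 CPM in the positive cells. Ifi44 was at 115 against 42.6 CPM and Mki67, the proliferation marker, at 26.6 against 8.66 CPM. Of 15 inflammatory genes 3 were higher and 3 lower, with Ccl2, the ligand of the monocyte receptor CCR2, at 143 against 63.4 CPM and Il6 at 4.56 against 27.9 CPM.

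The HFD_sed members were not uniform, and their levels differed between those with and without a Cd207 UMI. This split was chosen after its values were seen and has no test. It also follows depth: of the 71 members of at least 8000 UMIs, 93.0% held a Cd207 UMI. The part of depth in the values was not tested. The 112 members with a Cd207 UMI (median 9033 UMIs) had Marco at 136 CPM, Cd163 at 58.5 CPM and C6 at 220 CPM. The 45 without one (median 3790 UMIs) had 1157, 496 and 681 CPM. H2-Eb1 was at 4556 against 1833 CPM, Apoe at 28152 against 11252 CPM and Cx3cr1 at 191 against 53.5 CPM. The Cd207 negative members thus lay between the Cd207 positive ones and the Timd4 positive cells for Marco and H2-Eb1, and under the Timd4 positive cells for Apoe. The main identity genes differed less: Cd5l was at 4399 against 5329 CPM, Slc40a1 at 3043 against 3875 CPM and Clec4f itself at 2218 against 3034 CPM. A Marco UMI was found in 20.5% of Cd207 positive and 53.3% of Cd207 negative members, although the Cd207 positive cells were the deeper ones. The same split of the HFD_sed Timd4 positive cells gave a smaller gap, with Marco at 1497 CPM in the 73 with Cd207 and 1922 CPM in the 176 without, and H2-Eb1 at 2000 against 1075 CPM.

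In HFD_EXE over all depths, few list genes separated the Timd4 negative from the Timd4 positive cells. None of the 7 measured resident genes and none of the 7 MHC class II genes was called in either direction (medians 0.11 and 0.16), where 3.97% of all genes were called higher and 1.76% lower. Most of these members are shallow. The 21 with at least 4000 UMIs had 2 of 7 resident genes lower (median -0.16) and 2 of 7 MHC class II genes higher (0.56). These are the same directions as in HFD_sed, over backgrounds of 3.89% higher and 1.93% lower. The 21 include cells under 1000 Clec4f CPM, those of 13862, 8531, 6476 and 4297 UMIs. The 5 HFD_EXE members under that limit had a resident sum of 1413 CPM, against 4066 CPM in the other 73. The part of these cells in the calls was not tested. Against positive cells drawn to the depth of all 78 members, 1 of 5 resident genes was higher and 1 lower, and 1 of 6 MHC class II genes was higher. Marco was at 885 against 658 CPM, Cd163 at 803 against 1124 CPM, Slc40a1 at 2465 against 2509 CPM and Cd74 at 4426 against 4214 CPM. Apoc1 (1512 against 3088 CPM, -1.03) and Cxcl13 (82.0 against 199 CPM, -1.28) were lower here as in HFD_sed, though Cxcl13 stood at 0.11 against positive cells drawn to the same depth. Ccl4 was at 467 against 216 CPM and the mitophagy kinase gene Pink1 at 132 against 48.2 CPM. Ccr2 (107 against 9.09 CPM) and the plasmacytoid dendritic cell genes Siglech (207 against 15.9 CPM) and Ccr9 were higher over all members, but in the Clec4f-high ones the log2 ratio was -1.97 for Siglech and -1.16 for Ccr9 (backgrounds of 3.52% higher and 1.62% lower). The erythroid sum was 5286 against 909 CPM with all 4 measured erythroid genes higher, but with at least 4000 UMIs per cell all 4 were lower (median -2.16). The endothelial sum was 1787 against 1287 CPM. Their part in the comparison was not tested. The 78 members held 280359 UMIs in all, against 2199928 in the positive cells, so genes under 50 CPM rested on few counts.

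In S the outcome depended on which members were counted. Over all 165, 17.2% of genes were called higher and 9.78% lower than in the Timd4 positive cells, and 11 of 12 identity genes were among the lower (median -1.47): Cd5l was at 2006 against 6840 CPM and Fcna at 476 against 1954 CPM. Among the 104 Clec4f-high members these shares were 6.07% and 3.75%. Cd5l was then at 5429 against 6947 CPM and C6 at 1257 against 1462 CPM, neither past 1.5-fold, while Fcna, at 1233 against 1984 CPM, still was. Marco was higher, at 1277 against 783 CPM (0.71, 0.58 to 0.83), where it was lower in HFD_sed. H2-Eb1 was at 1734 against 1850 CPM and Cd74 at 5417 against 7170 CPM, so the higher MHC class II level of the HFD_sed members had no counterpart in the Clec4f-high S members. In the Clec4f-high S members 11 of 12 sinusoidal endothelial genes (median 1.07) and 9 of 10 hepatocyte genes (median 1.24) were higher than in the positive cells, and none was lower. Over all S members the hepatocyte sum was 7156 against 1936 CPM, the neutrophil sum 3993 against 504 CPM and the erythroid sum 2737 against 48.4 CPM; their part in the S values was not tested. The sum of early response and heat shock genes, which dissociation can raise, was alike in the 2 classes of every library: 8268 against 8247, 8387 against 8119 and 6852 against 6798 CPM.

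**Figure D4:**
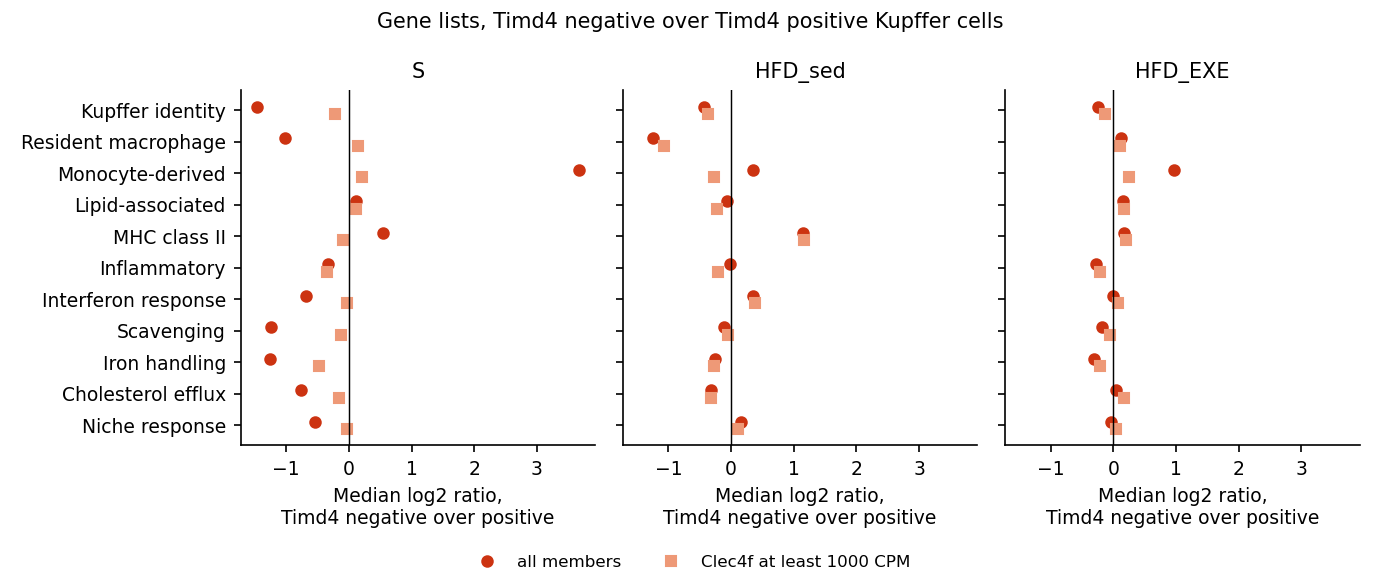
Median log2 ratio of the measured genes of each list, Timd4 negative over Timd4 positive Kupffer cells (horizontal), in each library, for all members and for the Clec4f-high ones. HFD_sed has the resident list at -1.24 and the MHC class II list at 1.15 in all members, with the Clec4f-high ones beside them, while in S the 2 sets of members part for most lists and in HFD_EXE most medians lie near 0.

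Against the Clec4f negative macrophages of the same libraries the members stood higher in Kupffer cell genes. The gates required Clec4f and Vsig4 in the members and none of either in the macrophages. A rise of genes expressed along with them was therefore built in, and these counts describe the classes without testing the label. They cover all members, with the 61 S cells under 1000 Clec4f CPM. Of 8163 genes tested, 370 rose (4.53%) and 244 fell (2.99%) by edgeR's quasi-likelihood test with the library as block and Benjamini-Hochberg adjustment (n = 3 library pairs, adjusted p under 0.05, median log2 difference of all genes 0.02). Of the 11 identity genes tested 10 rose, and so did 6 of 7 resident genes (medians 3.41 and 3.44). C6 stood at 467, 292 and 763 CPM in the members of S, HFD_sed and HFD_EXE against 19.0, 4.86 and 5.94 CPM, a rise of 5.72 (SE 0.387, adjusted p = 0.00153). Marco was at 460, 296 and 885 CPM against 23.7, 10.8 and 7.43 CPM and rose by 5.07 (SE 0.423, adjusted p = 0.00296, same test). Folr2 rose by 5.06, Cd163 by 4.94 and Cd5l by 4.66. The HFD_sed members, the lowest of the 3 libraries in Marco and Cd163, still stood above the macrophages without Clec4f in these 2 genes. The other genes with the largest rises were Pcolce2, Chp2, the transporter genes Slc45a3 and Slc16a9, the fatty acid binding protein gene Fabp7, and Sh3bgrl2.

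Genes of several Kupffer cell tasks rose with them, though Slc40a1, Spic, Nr1h3, Cd163 and Gas6 are also in the identity or resident lists counted above. Of the 10 iron handling genes 4 rose, namely Cd163, Hmox1 (haem oxygenase, 2.54), Slc40a1 (3.14, SE 0.235, adjusted p = 0.00172 by edgeR) and Spic, the transcription factor of iron-recycling macrophages. Of 13 genes of the uptake of dying cells 6 rose (C1qa, C1qc, Gas6, Mertk, Mrc1 and Msr1). Lpl, lipoprotein lipase, stood at 602, 2388 and 2076 CPM against 87.7, 596 and 206 CPM and rose by 2.59 (adjusted p = 0.00527 by edgeR). Of the 17 lipid-associated genes it was 1 of 4 that rose, with the cathepsin genes Ctsb, Ctsd and Ctsl. Of the 10 cholesterol efflux genes 2 rose, Abca1 and Nr1h3, the gene of the liver X receptor alpha. None of 8 MHC class II genes (median -0.35) and none of 14 interferon genes passed, and of 13 inflammatory genes Il1a rose and Cxcl10 fell. Of 12 sinusoidal endothelial genes Bmp2, Dnase1l3, Ehd3 and Stab2 rose.

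Of the 14 monocyte-derived genes 10 fell (median -2.86). Cx3cr1, the gene that was higher than in the Timd4 positive cells, was at 181, 169 and 111 CPM in the members against 500, 414 and 389 CPM in these macrophages, and fell by 1.59 (SE 0.217, adjusted p = 0.0100 by edgeR). Over all members its level thus lay between the 2 classes in each of the 3 libraries. In S, however, the Clec4f-high members stood at 7.37 CPM, from 3 UMIs, near the 5.67 CPM of the Timd4 positive cells. In HFD_EXE 18 of the 31 Cx3cr1 UMIs came from 1 cell. Ly6c2, the marker of classical monocytes, fell by 2.85 (adjusted p = 0.0403), Fn1 by 3.57, the chitinase-like gene Chil3 by 4.37 and S100a4 by 3.72. Ccr2 stood at -2.34 with an adjusted p of 0.0603 by the same test. The largest falls were those of Vcan, versican (6.84, 0.76 and 0 CPM against 75.8, 121 and 68.3 CPM, -4.96), and Ace, the angiotensin-converting enzyme gene (13.7, 2.28 and 7.13 CPM against 261, 96.1 and 126 CPM, -4.59), followed by Thbs1, F13a1, Cxcl11, S100a6 and Tppp3. Cd207 did not pass (1.15, adjusted p = 0.355): at 1010 CPM in the HFD_sed members it was above the 97.5 CPM of the macrophages, and at 135 against 163 CPM in S it was not. The neutrophil genes S100a8, S100a9 and Mmp8 fell as well, and the neutrophil sum differs between these classes.

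The members were then set side by side across libraries, with the same ratio in the Timd4 positive cells of those libraries beside it. The 3 comparisons share libraries, so each is given by its own values. Over all depths, resident genes were higher and MHC class II genes lower in HFD_EXE than in HFD_sed in the Timd4 negative cells, with smaller medians in the positive ones. In this comparison 11.4% of genes were called higher and 6.33% lower (7.95% and 6.35% in the positive cells). Of the 7 resident genes 4 were called higher and none lower (median 1.19), against 3 higher and 2 lower (0.53) in the positive cells. Cd163 was at 803 CPM in HFD_EXE and 127 CPM in HFD_sed (2.66; 0.76 in the positive cells), Marco at 885 and 296 CPM (1.58; -1.43), and Folr2 at 571 and 250 CPM (1.19; 0.53). The other gene called was Lyve1, a hyaluronan receptor gene, from few UMIs. Marco thus had opposite signs in the 2 classes of the same libraries, a difference that was not tested. The identity genes C6 (763 and 292 CPM) and Fcna (1384 and 400 CPM) were higher too, as was Ccl24, an eosinophil chemokine gene of alternatively activated macrophages (367 and 111 CPM). The HFD_EXE members were shallower, with a median of 2940 against 6416 UMIs. The 3 of them with at least 8000 UMIs had Marco at 63.3, Cd163 at 0, C6 at 63.3 and H2-Eb1 at 4081 CPM. The 71 such HFD_sed members had 127, 48.4, 147 and 4769 CPM. The 3 HFD_EXE cells are too few to compare, with Marco and C6 resting on 2 UMIs each. Their cells of 13862 and 8531 UMIs held 3 Clec4f UMIs each and lie under 1000 Clec4f CPM. Whether these differences hold in deep cells therefore cannot be told. The part of depth was not tested.

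Of 7 MHC class II genes 6 were lower in the HFD_EXE members (median -1.24), against 1 of 7 (-0.17) in the positive cells. H2-Eb1 was at 1448 and 4131 CPM (-1.51; -0.39 in the positive cells) and Cd74 at 4426 and 11484 CPM (-1.38; -0.28). Apoe was at 13150 and 25510 CPM (-0.96; -0.03). Inflammatory genes were lower in both classes: 8 of 14 in the members (median -1.17) and 8 of 15 in the positive cells (-1.35). Ccl3 had a log2 ratio of -2.05 in the members and -2.08 in the positive cells, and Il1b -1.37 and -1.69. Ccl2 was at 3.57 CPM (1 UMI) and 143 CPM, a ratio of -5.32 (-10.63 to -2.83). Cxcl9 was lower as well, with 78.7% of its HFD_sed UMIs in 1 cell. The Clec4f-high members gave 4 of 7 resident genes higher (1.11), 6 of 7 MHC class II genes lower (-1.21) and 5 of 13 inflammatory genes lower (-0.81), over backgrounds of 10.6% higher and 6.36% lower.

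Other genes named by size between these libraries were Lepr, the leptin receptor gene (171 CPM in HFD_EXE and 7.60 CPM in HFD_sed, 4.49; 2.37 in the positive cells), Gpt2 (114 and 7.60 CPM, 3.91) and the hepatocyte secretory gene Mup11 on the higher side. Siglech, Ccr9 and Runx2 were also higher over all members but not among the Clec4f-high ones. On the lower side were Mmp12, a macrophage elastase (14.3 and 437 CPM, with 51% of the HFD_sed UMIs in 1 cell), Gdf15, a stress cytokine (10.7 CPM from 3 UMIs and 214 CPM, -4.32, -6.61 to -2.76), Cd63, Clec4b1 and Ccl7, which had no UMI in HFD_EXE. Il10, an anti-inflammatory cytokine gene, was at 114 and 23.6 CPM (2.28; 1.49), but with at least 4000 UMIs per cell its ratio in the members was -1.32. Id3, which Kupffer cells need for their identity, was at 221 and 877 CPM (-1.99; -1.09), and Id1, another target of BMP signalling, was lower too. Abca1, the cholesterol exporter gene, was at 902 and 286 CPM (1.66; 1.04). All 11 measured endothelial genes were higher (median 2.12; 1.36 in the positive cells, 10 of 12), and all 4 globin genes (6.14; 3.65), while the early response list was lower (-0.77; -0.44). These move with the library in both classes, and their part in the results was not tested.

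For HFD_sed against S the Clec4f-high members are given first, since the S members mix the cells described above. The Clec4f-high S members were the shallower ones, with a median of 3245.5 against 6056 UMIs in HFD_sed. The part of depth in this comparison was not tested. Among them 9.58% of genes were called higher in HFD_sed and 9.48% lower, against 9.75% and 16.6% over all members and 6.71% and 7.65% in the positive cells. Of 7 MHC class II genes 5 were higher (median 0.96), where the positive cells had 0 of 8 called (-0.49). H2-Eb1 had a log2 ratio of 1.21 (-0.40 in the positive cells) and Cd74 of 1.03 (-0.48). Of the 7 resident genes 4 were lower and none higher (median -1.02): Cd163 was at 167 CPM in HFD_sed and 963 CPM in S (-2.53; -1.06), Marco at 390 and 1277 CPM (-1.71; 1.20), Folr2 at 292 and 594 CPM (-1.02; -0.47), and Colec12 had a ratio of -0.99 (0.61). Cd207 was at 1037 and 177 CPM (2.55; -0.35), Ms4a7 at 220 and 34.4 CPM (2.68; 2.16), and Pf4, a chemokine gene of macrophages and platelets, at 229 and 29.5 CPM (2.96; 1.41). Of 16 lipid-associated genes 7 were higher (0.67; 8 of 17 and 0.57 in the positive cells), among them Trem2, the lipid receptor (1.29; 1.09), and Apoe (0.81; -0.33). Interferon genes were higher in 7 of 14 (0.61; 3 of 14 and 0.26), with Ifi44 at 127 and 19.6 CPM. Markers of other cells moved with this comparison: 11 of 11 measured endothelial genes were lower in HFD_sed (median -1.55; 3 of 12 lower and 1 higher, -0.25, in the positive cells), as were 9 of 9 hepatocyte genes (-2.48; 10 of 10, -2.41) and 3 of 3 neutrophil genes. Their part in the values was not tested. Gdf3 and Mmp13 had no UMI in the S cells. Against a limit of 3 UMIs over those cells Gdf3 was at least 2.85 and Mmp13 at least 3.64 higher on the log2 scale.

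Over all members the HFD_sed against S values turned for several lists. Identity genes were then higher in 8 of 12 and lower in 1 (median 1.04), against 0 higher and 3 lower (-0.06) in the Clec4f-high members. Monocyte-derived genes were lower in 10 of 14 (-2.02), against 3 higher and 1 lower of 10 (0.13), and all 12 measured cell cycle genes were lower (-2.91), against none of 6. The lower genes named by size were Retnlg, S100a8 and S100a9, which are neutrophil genes, and the hepatocyte enzyme genes Cyp4a14, Cyp4a10 and Mat1a. Cyp4a14 was at 2.28 CPM in HFD_sed, from 3 UMIs, and 388 CPM in S, a log2 ratio of -7.41 (-9.70 to -5.86). In S B cells Cyp4a14 was at 85.1 CPM against 2.69 CPM in HFD_sed.

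Between S and HFD_EXE fewer list genes were called in the Clec4f-high members than between S and HFD_sed. These are the smallest pools, of 407264 and 244971 UMIs, and smaller pools give fewer calls. Only 5040 genes were measured, against 7214 for HFD_sed over S. Of 104 measured genes of the 13 biology lists, 15 were higher and 10 lower in HFD_EXE, where 10.2% and 5.54% of all genes were called. In the positive cells it was 21 and 24 of 140, with backgrounds of 8.67% and 9.34%. No MHC class II gene was called in these members (median -0.22), and 1 of 7 resident genes was called lower (median -0.12). Interferon genes were higher in 6 of 11 (0.77; 2 of 14 and 0.43 in the positive cells). Over all members 53 of 139 list genes were higher and 43 lower, with backgrounds of 14.1% and 12.1%. The genes named by size on the higher side were the stress response gene Ddit4 (200 CPM in HFD_EXE and 17.1 CPM in S, 3.55; 3.96 in the positive cells), the transcription factor gene Jdp2 (214 and 21.4 CPM, 3.32; 2.47), the glucocorticoid-induced gene Fkbp5 (193 and 27.4 CPM, 2.81; 2.31), Lepr (171 and 21.4 CPM), Tgfb3 and Crtap. On the lower side Cyp4a14 was joined by Ehhadh, H2ac24, Gzma, Top2a and Retnlg. In the Clec4f-high members the log2 ratio was -5.35 for Cyp4a14, -1.27 for Gzma and 0.54 for Retnlg. Ehhadh and Top2a had no UMI in HFD_EXE there. Against a limit of 3 UMIs their ratios were at most -1.68 and -0.68. H2ac24 had 1 UMI in HFD_EXE and no UMI in S.

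**Figure D5:**
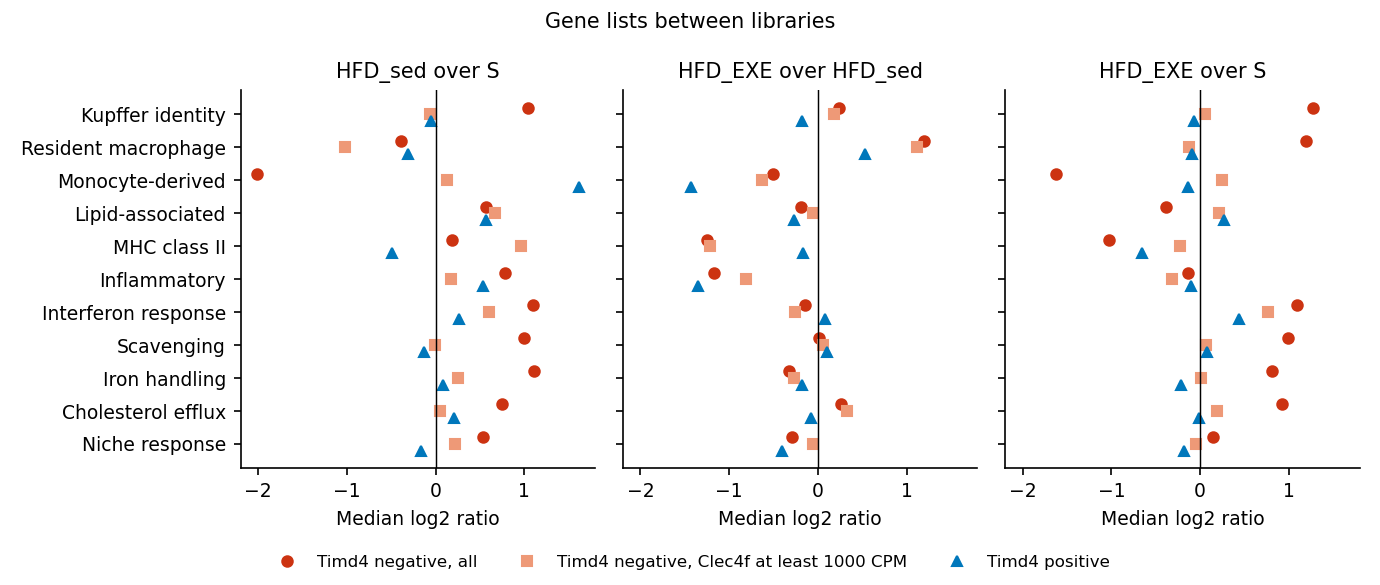
Median log2 ratio of each list's measured genes between pairs of libraries (horizontal) in all Timd4 negative Kupffer cells, the Clec4f-high members and the Timd4 positive Kupffer cells. For HFD_EXE over HFD_sed the resident list stands at 1.19 and the MHC class II list at -1.24 in the Timd4 negative cells, with the positive cells at 0.53 and -0.17, while the inflammatory list is low in both classes.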

How the data were processed

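The authors deposited whole UMI counts for each gene and barcode, not normalized. Cell Ranger 6.1.2 and GRCm39 are named in the submitters' processing notes, which give no counting options here. Cells, genes and gene lists were chosen with earlier results of these data known. UMIs were summed per class and library. Timd4 negative cells were tested against the 2 other classes over 3 library pairs with edgeR 4.0.16 (R 4.3.3; filterByExpr, TMM, quasi-likelihood, library as block, Benjamini-Hochberg), after a test on simulated data, with DESeq2 1.42.0 as an alternative. The pairs are the same library by construction. The libraries differ in condition, so p-values measure the spread over 3 unlike libraries, and nothing says they came from separate animals. Rule genes were fitted and adjusted together with the others and left out of the counts of calls, as was Adgre1 against macrophages. Library ratios used class totals. Named genes were up to 4 per list, the 10 largest called fitted changes per direction with at least 50 CPM, and per library pair the 6 per direction with the interval bound farthest from equality, leaving out rule, haemoglobin, mitochondrial, ribosomal, sex-linked, listed hepatocyte and unnamed genes; others named were chosen after their values were seen. No doublet caller was run, and only the gates on Cd3e, Cd79a and Ptprb stood in for it. The main results had no upper UMI limit and hold 14 S and 7 HFD_sed members over 20000 UMIs. A limit of 20000 UMIs was an alternative. Intervals and limits cover counting error only. Alternatives were other UMI, Clec4f, Timd4 and mitochondrial limits, thinning, depth-matched draws, other filters, scalings and folds, and leaving out each library.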

Additional observations from a re-analysis of the deposited data

Results flagged for a closer look

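Several genes of the lists were called in opposite directions in different libraries when Timd4 negative were compared with Timd4 positive Kupffer cells. With 1 library per group the difference was not tested. Over all members this held for 8 of the 147 genes of the biology lists. The same count was not made over all measured genes, so such counts cannot be called many or few. Of all genes 17.2% were called higher and 9.78% lower in S, 3.51% and 5.12% in HFD_sed, and 3.97% and 1.76% in HFD_EXE. Apoe had a log2 ratio of -0.79 in S and 0.99 in HFD_sed, Ccl2 of -1.12 and 1.17, and Ifit3 of -1.92 and 0.76. Arg1 had 1.79 in S and -2.80 in HFD_sed, and Spp1 5.42 and -3.33, with 94% of the S UMIs of Spp1 in 1 cell. Cxcl2 had 0.94 in HFD_sed and -0.67 in HFD_EXE. Mmp12 had 3.68 in S, with 72% of its UMIs in 1 cell, and -1.81 in HFD_EXE. Stmn1 had 3.04 in S, 1.48 in HFD_sed and -1.57 in HFD_EXE. Among the members with at least 1000 Clec4f CPM it held for 5 of 147. Marco had 0.71 in S, -2.22 in HFD_sed and 0.61 in HFD_EXE. H2-DMa had -0.60 in S and 0.74 in HFD_sed, Ifit3 -1.04 and 0.83, and Clec4e 2.85 and -1.05. Mmp12 had 1.75 in S, -0.74 in HFD_sed and -1.62 in HFD_EXE.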

How the results depend on the processing

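The share of gate cells without Timd4 moved with depth and with the Clec4f limit. In S it was 38.3% and 17.2% with cells thinned to 2000 and 4000 UMIs, 7.60% with at least 4000 UMIs per cell, 9.64% and 15.4% with at least 3 and 1 Clec4f UMIs, and 7.70% with at least 1000 Clec4f CPM, a limit added after seeing the data. In HFD_sed it was 57.1% and 46.3% with thinning, and in HFD_EXE 40.7% with thinning to 2000 UMIs and 8.11% with at least 4000 UMIs. Genes higher than in Timd4 positive cells (1 as reported) numbered 22 with DESeq2, 348 with no filter on low counts, 0 with no replicate block, 0 to 156 when each library was left out, 6 with at most 20000 UMIs, 8 with depth-matched draws and 12 with the Clec4f CPM limit. Genes lower (0 as reported) numbered 13 with DESeq2, 138 with no filter, 0 to 5 when each library was left out, 4 with at most 20000 UMIs, 1 with at least 3 Clec4f UMIs and 9 with the Clec4f CPM limit. Genes higher than in Clec4f negative macrophages (370) numbered 754 with no filter, 144 with no replicate block, 123 to 566 without each library, 162 with at least 4000 UMIs, 640 with at most 20000 and 841 with the Clec4f CPM limit. Genes lower (244) numbered 715, 79, 53 to 528, 100, 622 and 821 in the same order, and 557 with at least 3 Clec4f UMIs. Between libraries, higher list genes for HFD_sed over S numbered 40 at 2-fold and 33 with the Clec4f CPM limit, where 4.53% and 9.58% of all genes were called. For HFD_EXE over HFD_sed they numbered 14 at 2-fold (7.13% of all genes). For HFD_EXE over S they numbered 15 with the Clec4f CPM limit (10.2% of all genes). With that limit lower ones numbered 15 for HFD_sed over S (9.48% of all genes) and 10 for HFD_EXE over S (5.54%). The Clec4f CPM limit reversed Cd5l (-0.084), Ciita (0.45) and Clec1b (-0.16) for HFD_sed over S, and C6 (-0.59), Ccl24 (-0.023), Cd163 (-0.12), Marco (-0.35) and Slc40a1 (-0.52) for HFD_EXE over S. At least 4000 UMIs per cell reversed Cx3cr1 (0.35) and Il10 (-1.32) for HFD_EXE over HFD_sed, and Cx3cr1 (0.10) and Cxcl2 (-0.18) for HFD_EXE over S. The cause was not tested. Of 231 alternative values of 21 fitted genes 213 kept their direction and side of the threshold and 18 lost the call. Of 933 alternative values of 164 library results 677 stayed within their interval, 244 moved and 12 reversed. Depth limits HFD_EXE most, where 3 of 78 members reached 8000 UMIs.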
